A study of Canis lupus familiaris with 6 samples.

Results

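Matrix metalloproteinases (MMPs) and tissue inhibitors of metalloproteinases (TIMPs) were examined in healing holes of the beagle dog mandible. The members were chosen by gene name: MMP1, MMP2, MMP3, MMP9, MMP13, MMP14, TIMP1, TIMP2 and TIMP3. Every probe set annotated to 1 of these 9 genes alone was taken, which gave 18 of the 42860 probe sets of the Affymetrix canine array. Of the 18 probe sets, 11 belong to the Cfa type and 7 to the CfaAffx type, named after the start of their identifiers, and 12 measure MMPs and 6 measure TIMPs. A filter on low values kept 16 of the 18, and the other two are weak probe sets of MMP9.

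Holes of 4.5 mm diameter and 8 mm length were drilled in mandibles of 9-year-old beagles, 3 months after the premolars were extracted. The treated sites were filled with beta-TCP (beta-tricalcium phosphate, a ceramic that bone can resorb and replace) and sampled at day 4, day 7 or day 14, and the control sites were drilled, left without beta-TCP and sampled on the same days. Each of these 6 groups holds 1 array of total RNA from the whole cylinder, so no difference on a single day has a replicate, an error or a p-value. The sources used here do not give the number of dogs or say which cylinders shared a dog.

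MMPs are zinc-dependent endopeptidases, secreted or bound to the cell membrane, that together can degrade every protein of the extracellular matrix. TIMPs are small proteins that block the active site of MMPs, so matrix loss depends on the balance of both. In bone repair, MMPs clear the clot and the injured matrix, open paths for vessels and osteoclasts, and remove cartilage where it forms.

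Values are given as a multiple of the median over all 42860 probe sets of the same array, and differences as log2(multiple + 1), beta-TCP minus control. A log2 difference of 1 is called 2-fold, and on this scale the differences of weak probe sets are understated. The values of both day 14 arrays were deposited on another scale than those of days 4 and 7, so in differences between days the scale and day 14 cannot be told apart. The beta-TCP day 14 array also stood apart, with Spearman correlations of 0.723 to 0.779 to the other arrays, against 0.832 to 0.905 among the others. Since whole cylinders were measured, fewer cells of a type and less RNA per cell cannot be told apart.

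MMP3, MMP9, MMP13 and TIMP1 read at least 2-fold lower with beta-TCP than in the control at day 7, and the control array of that day carried the highest value of the series for each of them. MMP2 read higher with beta-TCP at days 4 and 7 on its 2 stronger probe sets. At day 14, MMP9 and MMP13 read higher with beta-TCP, MMP13 by 2-fold on 1 of its 2 probe sets. MMP14 read lower, on a day when 16.2% of all kept probe sets were at least 2-fold lower. No member passed the test of an average beta-TCP effect over the 3 days.

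The collagenases cut the triple helix of fibrillar collagen. MMP13, collagenase 3, is known from osteoblasts and hypertrophic chondrocytes. Its stronger probe set, of the CfaAffx type, read 23.2, 156 and 49.5 on the beta-TCP arrays of days 4, 7 and 14, against 14.3, 384 and 20.3 on the control arrays. The control array of day 7 therefore stood far above all others, and the beta-TCP array of day 7 came next. The differences were 0.66 at day 4, -1.30 at day 7 and 1.24 at day 14. The Cfa probe set of MMP13 read 3.9, 22.7 and 6.61 with beta-TCP, against 3.53, 68.2 and 3.46 in the control. It ran the same way on each day, with differences of 0.11, -1.54 and 0.77, although at day 14 it stayed under 2-fold.

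MMP1, the interstitial collagenase, peaked at day 7 under both treatments. Its stronger probe set read 48.6, 211 and 39.5 on the beta-TCP arrays, against 62.7, 326 and 44.2 on the control arrays. Its other probe set read 29.9, 142 and 7.42 with beta-TCP, against 29.2, 243 and 14.5 in the control. Both read lower with beta-TCP at day 7 (-0.62 and -0.76) and at day 14 (-0.16 and -0.88), none of them by 2-fold. The day 14 difference of the stronger one turned its sign under scaling to the 90th percentile (0.27) and quantile normalization (0.28). It ran from -1.11 to 0.28 over all alternatives. Both MMP1 probe sets are of the CfaAffx type, so no Cfa probe set stands beside them.

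MMP3, stromelysin 1, degrades proteoglycans and fibronectin and activates other MMPs from their inactive proforms. It read 12.2, 15.1 and 1.56 on the beta-TCP arrays of days 4, 7 and 14, against 8.96, 72.3 and 2.89 on the control arrays. The day 7 peak of the control had no counterpart with beta-TCP, where days 4 and 7 were nearly level. The day 7 difference of -2.18 was the lowest of any member on any day, and the differences at days 4 and 14 were 0.41 and -0.60.

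The gelatinases degrade denatured collagen and basement membrane collagen, and they split in direction. MMP9, gelatinase B, is made by osteoclasts and neutrophils. It read 59.3, 239 and 197 on the beta-TCP arrays of days 4, 7 and 14, against 52.5, 758 and 73.2 on the control arrays. With beta-TCP the level of day 7 was nearly held at day 14, while in the control the day 14 value lay close to that of day 4. The differences were 0.17, -1.66 and 1.41. The other two probe sets of MMP9 read at most 0.636 times the array median on any array, below the filter, and give no second reading of this gene.

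MMP2, gelatinase A, is made by fibroblasts and osteoblasts and is activated at the cell surface by MMP14. Its strongest probe set, of the Cfa type, read 18.4, 83 and 72.3 on the beta-TCP arrays, against 8.72, 39.1 and 105 on the control arrays. The values with beta-TCP were about 2 times those of the control at days 4 and 7, with differences of 0.997 (just under 2-fold) and 1.07, and the order was turned at day 14 (-0.54). A CfaAffx probe set of MMP2 read 6.84, 26.7 and 6.84 with beta-TCP, against 3.6, 13.2 and 22.3 in the control. Its differences of 0.77 and 0.97 at days 4 and 7 had the same sign, and its day 14 difference was -1.57. The other, weak probe set of MMP2 read between 0.947 and 2.42 on all arrays and differed by -0.37, 0.00 and -0.29.

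MMP14, membrane type 1 MMP, is anchored in the cell membrane, cleaves collagen there and activates the proform of MMP2. It read 6.33, 7.35 and 2.19 on the beta-TCP arrays, against 5.35, 5.28 and 7.92 on the control arrays. The arrays of days 4 and 7 lay within a narrow range, and the day 14 arrays were the lowest (beta-TCP) and the highest (control) of all. The differences were 0.21, 0.41 and -1.48.

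**Figure D1:**
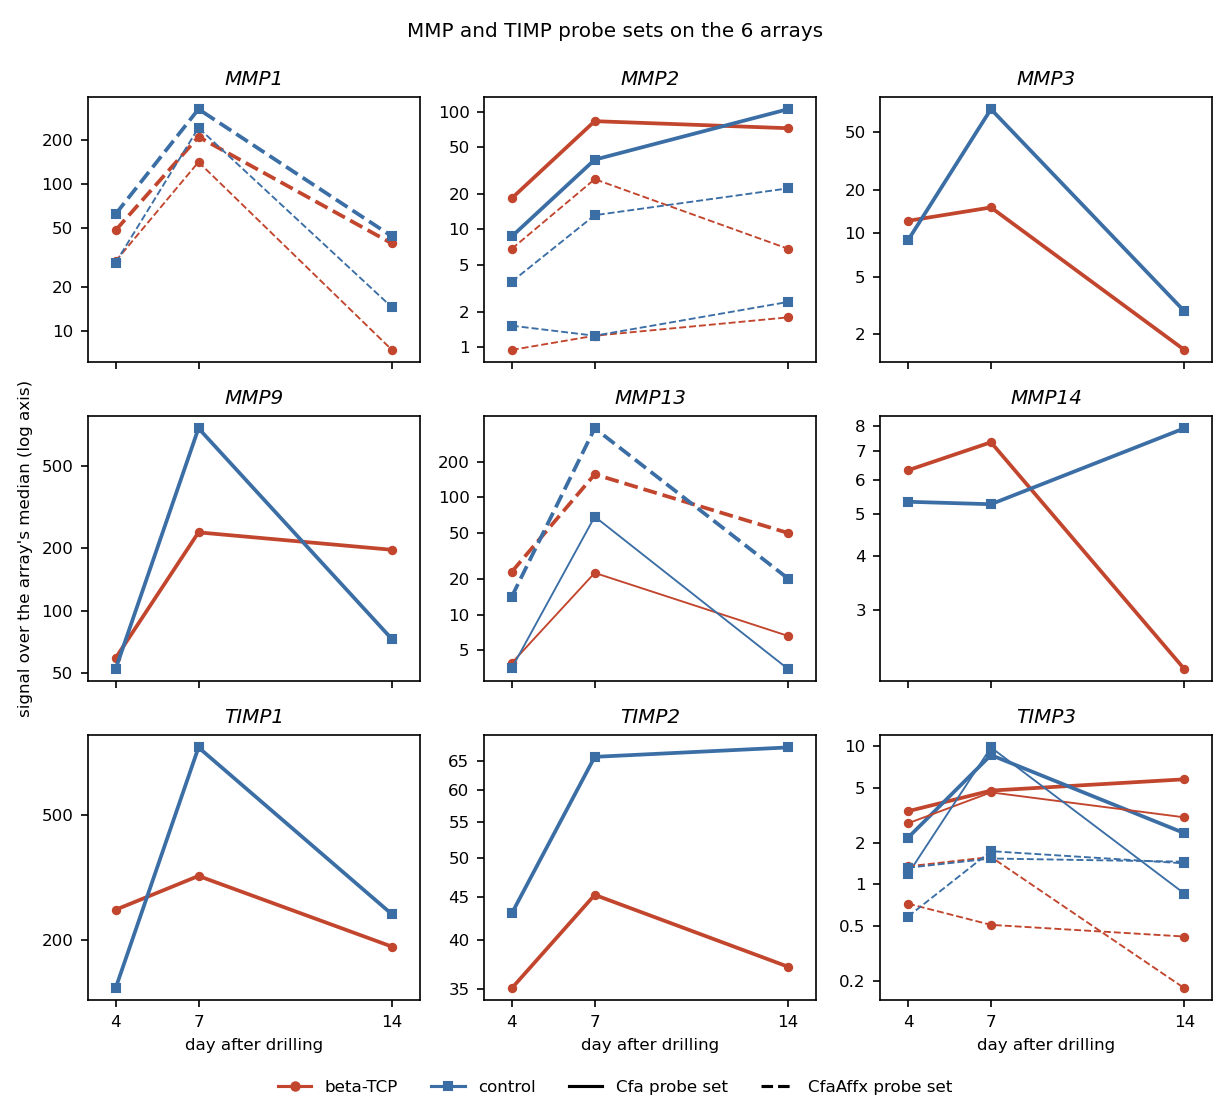
Signal of the 16 kept probe sets as a multiple of the array median (vertical log axes that differ between panels) against the day after drilling, with beta-TCP as red circles and control as blue squares, 1 array per point. Solid lines are Cfa and dashed lines CfaAffx probe sets, and thick lines mark the strongest probe set of each gene. The control peak at day 7 stands out for MMP3 (72.3), MMP9 (758), MMP13 (384) and TIMP1 (818).

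Among the inhibitors, TIMP1, a secreted protein that also binds the proform of MMP9, peaked on the control array of day 7. It read 250, 320 and 191 on the beta-TCP arrays of days 4, 7 and 14, against 141, 818 and 242 on the control arrays. The beta-TCP arrays lay within a narrow range, and the control array of day 7 was far above the other 5. The differences were 0.82, -1.35 and -0.34.

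TIMP2, which besides inhibiting MMPs links MMP14 to the proform of MMP2, varied least among the strongest probe sets of the 9 genes, over 0.92 log2 units. It read 35.1, 45.2 and 37.2 with beta-TCP, against 43, 65.7 and 67.4 in the control. It was lower with beta-TCP on each day, by differences of -0.28, -0.53 and -0.84, all under 2-fold.

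TIMP3, which stays bound to the matrix and also inhibits ADAMTS proteases, gave opposite readings by probe set type at day 14. Its stronger Cfa probe set read 3.39, 4.78 and 5.77 with beta-TCP, against 2.18, 8.65 and 2.35 in the control. Its other Cfa probe set read 2.77, 4.64 and 3.06 with beta-TCP, against 1.19, 9.82 and 0.858 in the control. Both were lower with beta-TCP at day 7 (-0.74 and -0.94) and higher at day 14 (1.02 and 1.13). Of the CfaAffx probe sets, which read at most 1.74 on any array, the stronger differed by 0.02, 0.02 and -1.06 and the weaker by 0.12, -0.86 and -0.77. The day 14 direction of TIMP3 is therefore not settled by these data.

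The number of members past 2-fold differed between the days. At day 4, 0 of the 16 kept member probe sets were at least 2-fold higher and 0 lower with beta-TCP, where 4.31% and 2.96% of all 25608 kept probe sets were. At day 7, 5 of 16 (31.2%) were at least 2-fold lower, against 3.0% of all, and 1 of 16, the Cfa probe set of MMP2, was higher, against 3.17% of all. The members' median difference at day 7 was -0.75, beside -0.04 for all probe sets. These 5 probe sets measure 4 genes, since MMP13 has 2 of them. At day 14, 4 of 16 were at least 2-fold higher, against 3.89% of all, and 3 of 16 (18.8%) were lower, which is near the 16.2% of all. With values as deposited, these day 14 counts were 0 higher and 11 lower. In that setting neither day 14 array is divided by its median, and the control array had the higher median. This lowers the difference of any probe set well above the median, member or not. The matching share of all probe sets is not given here, so these counts do not single out the members. With division by the median, the 4 higher ones were those of MMP9, the CfaAffx probe set of MMP13 and both Cfa probe sets of TIMP3. The 3 lower ones were those of MMP14, a CfaAffx probe set of MMP2 and a CfaAffx probe set of TIMP3. At day 14, 12.5% of all Cfa and 20.6% of all CfaAffx probe sets were at least 2-fold lower with beta-TCP.

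Of the alternative processings, choosing other probe sets leaves a difference unchanged, and values as deposited barely move one at day 7. Under the rest (scaling to the 90th percentile, quantile normalization, pseudocounts 0.25 and 16), the 5 day 7 differences remained at least 2-fold lower. Their ranges were -2.24 to -1.50 for MMP3, -1.77 to -1.57 for MMP9, -1.30 to -1.17 and -1.57 to -1.12 for MMP13 and -1.48 to -1.26 for TIMP1. The day 14 differences depended more on the processing. The difference of MMP9 at day 14 ran between 0.47 (values as deposited) and 1.85, and that of MMP14 between -2.72 and -0.40.

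**Figure D2:**
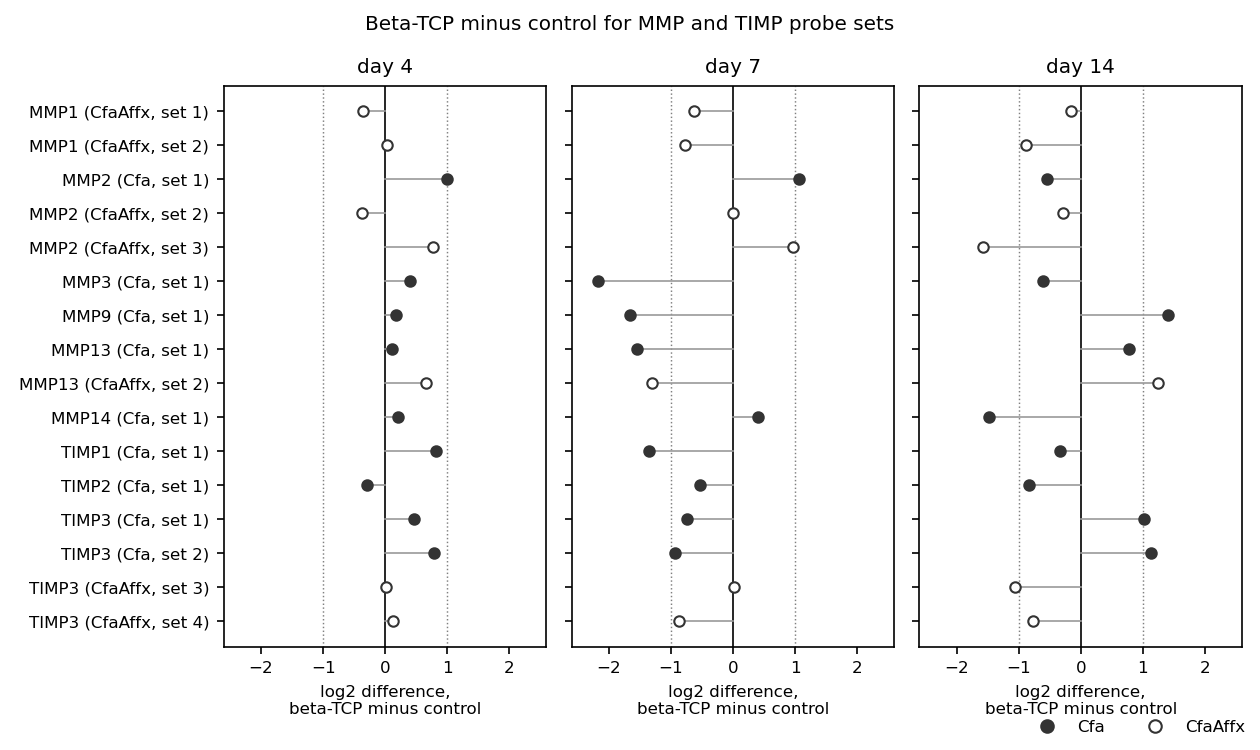
Difference in log2(multiple of the array median + 1), beta-TCP minus control, for the 16 kept probe sets (rows, numbered within a gene) at days 4, 7 and 14, 1 array per group. Filled circles are Cfa and open circles CfaAffx probe sets, and dotted lines mark 2-fold. At day 7 MMP3 (-2.18), MMP9 (-1.66), both MMP13 probe sets and TIMP1 (-1.35) lie left of the dotted line, and MMP2 (1.07) lies right of it.

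Whether beta-TCP shifted a probe set on average was tested with limma, with terms for treatment and day on all 6 arrays (the additive fit, 2 residual degrees of freedom). None of the 25608 probe sets passed an adjusted p of 0.05 (0% in either direction; lowest adjusted p = 0.582), and 1057 had an unadjusted p under 0.05. Among the 16 member probe sets, 0 had an unadjusted p under 0.05. On simulated data this test called 4% of 2-fold changes, so a lack of calls does not show a lack of effect. The smallest member p was that of TIMP2, with an average difference of -0.55 ± 0.30 (SE over 6 arrays, unadjusted p = 0.0967, adjusted p = 1.0, limma). For MMP9 the average was -0.03 ± 0.52 (SE, adjusted p = 1.0, limma), since its day 7 and day 14 differences had opposite signs. In this fit any difference between days in the effect of beta-TCP enters the error, so the p-values measure that mixture and not a spread between animals.

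The next comparison was between days. From day 4 to day 7, MMP1, MMP2, MMP9 and MMP13 were higher at day 7 under both treatments, while MMP3, TIMP1 and TIMP3 were higher by at least 2-fold on the control arrays alone. Within beta-TCP, 7 of 16 member probe sets were at least 2-fold higher at day 7 than at day 4 (4.71% of all) and 0 were lower (2.69% of all). Within the control, 11 of 16 were higher (13.6% of all) and 0 lower (5.68% of all). The differences of MMP13 were 2.69 with beta-TCP and 4.65 in the control for the CfaAffx probe set, and those of MMP9 were 1.99 and 3.83. MMP3 differed by 0.29 with beta-TCP and by 2.88 in the control, and TIMP1 by 0.36 and 2.53. MMP2 differed by about as much under both treatments, by 2.11 with beta-TCP and 2.04 in the control. MMP14 differed by 0.19 and -0.01, and TIMP2 by 0.36 and 0.60. Whether these changes differ between treatments was not tested, since each group holds 1 array. The day 7 control array enters both this comparison and that of beta-TCP with control at day 7.

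**Figure D3:**
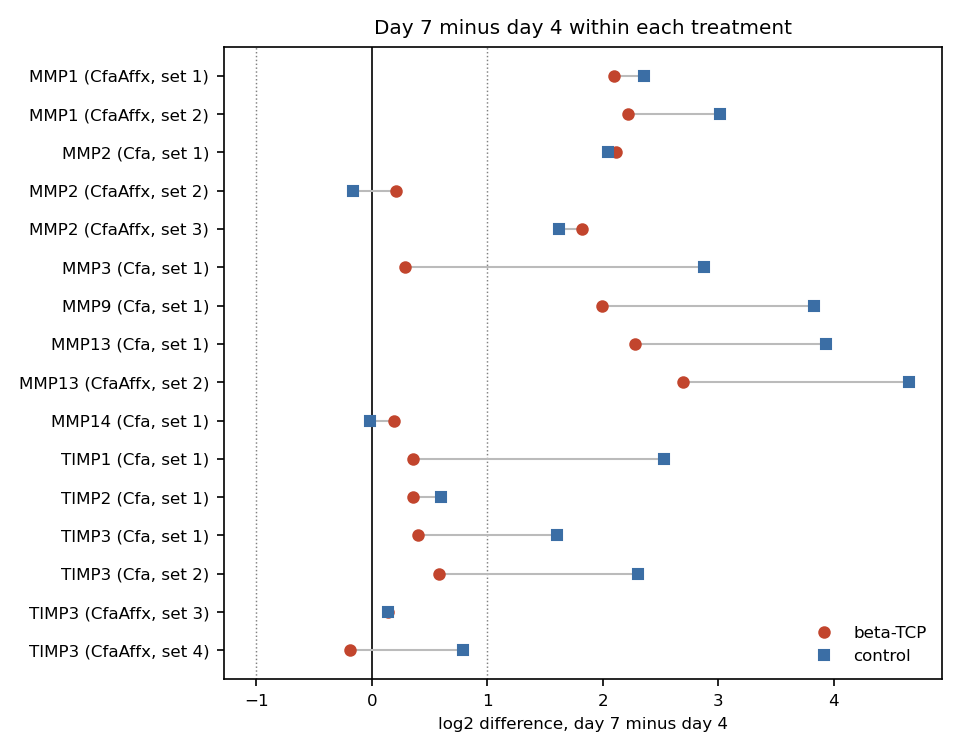
Day 7 minus day 4 in log2(multiple of the array median + 1) for the 16 kept probe sets (rows), with beta-TCP as red circles and control as blue squares, 1 array per group and day. Dotted lines mark 2-fold. MMP2 lies near 2 under both treatments (2.11 and 2.04), while MMP3 (0.29 and 2.88) and TIMP1 (0.36 and 2.53) lie apart.

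In the additive fit of all 6 arrays, day 7 minus day 4 called 0 probe sets (0% of all; 2814 had an unadjusted p under 0.05, 10 of them members). With the day 14 pair left out, which leaves 4 arrays on 1 scale and 1 residual degree of freedom, 10 of the 16 member probe sets were higher at day 7 at an adjusted p under 0.05 (5.05% of all) and 0 were lower (2.29% of all). MMP13 rose by 3.67 ± 0.39 (SE over 4 arrays, adjusted p = 0.00011, limma) on its CfaAffx probe set and by 3.11 ± 0.37 (adjusted p = 0.000198, limma) on its Cfa probe set. MMP9 rose by 2.91 ± 0.38 (adjusted p = 0.000369, limma). Both MMP1 probe sets rose, by 2.61 ± 0.32 and 2.23 ± 0.31 (adjusted p = 0.000241 and 0.00057, limma), and so did 2 of 3 probe sets of MMP2, by 2.08 ± 0.31 and 1.72 ± 0.31 (adjusted p = 0.000878 and 0.00341, limma). MMP3 (1.58 ± 0.45), TIMP1 (1.44 ± 0.41) and the weaker Cfa probe set of TIMP3 (1.44 ± 0.38) passed with adjusted p = 0.0411, 0.0427 and 0.0286 (limma). These averages came mostly from the control, where the probe sets differed by 2.88, 2.53 and 2.30, against 0.29, 0.36 and 0.58 with beta-TCP. With 1 array per group, the p-values of this fit do not measure a spread between animals. MMP14 (0.09 ± 0.31) and TIMP2 (0.48 ± 0.31) did not pass. In this fit most of the precision comes from the other probe sets, since the prior carries 15.1 degrees of freedom, and the average effect of beta-TCP was called for 0 member probe sets, against 0.238% of all higher and 0.184% lower.

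Between days 7 and 14 most members were lower at day 14. Within beta-TCP 8 of 16 member probe sets were at least 2-fold lower (19.7% of all) and 0 higher (4.39% of all). Within the control 9 of 16 were lower (6.55% of all) and 1, the Cfa probe set of MMP2, was higher (3.95% of all). MMP3 differed by -2.65 with beta-TCP and -4.23 in the control, and the second MMP1 probe set by -4.09 and -3.98. MMP13 differed by -1.63 with beta-TCP and -4.17 in the control on its CfaAffx probe set. In the additive fit that MMP1 probe set fell by 4.03 (SE 0.39, adjusted p = 0.0327, limma), 1 of 3 calls among all probe sets (0.00781% lower and 0.00391% higher). This call was lost with values as deposited (-1.04, adjusted p = 0.169), pseudocounts 0.25 and 16 (adjusted p = 0.193 and 0.39), no filter (0.514) and CfaAffx probe sets alone (0.0831), all by limma. The stronger MMP1 probe set fell by 2.62 in the same fit and was not called (adjusted p = 0.106, limma). MMP9 differed by -0.28 with beta-TCP and -3.35 in the control. Between days 4 and 14, the Cfa probe set of MMP2 rose by 2.69 (SE 0.47, adjusted p = 0.0246, limma) and was the only member called, while 0.773% of all probe sets were higher and 2.5% lower. This call was lost with pseudocounts 0.25 and 16 (adjusted p = 0.0614 and 0.17) and no filter (0.126), and with values as deposited the difference was 5.78 (adjusted p = 0.00457), all by limma. The step to day 14 includes the change of scale of the deposited values.

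A day 7 value at least 2-fold above both other days was found in both treatments for 4 of the 16 member probe sets, those of MMP1 and MMP13, against 0.308% of all. With beta-TCP 5 of 16 met this rule (1.47% of all), and in the control 9 of 16 (2.33% of all), these 4 included in both counts. The control day 7 array held the highest of the 6 values for 10 of the 16 member probe sets, against 18.8% of all. The beta-TCP day 14 array held the lowest value for 6 of 16, near the 36.2% of all.

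Markers of other cell types were read beside the members. Of 12 osteoclast markers 9 had a probe set and 7 passed the filter. With beta-TCP 6 of the 7 were lower at day 7 (median -0.71) and 6 of 7 higher at day 14 (median 0.78), as MMP9 was. The medians of all kept probe sets were -0.04 and -0.22. By at least 2-fold, 2 of the 7 were lower at day 7 (3.0% of all) and 3 higher at day 14 (3.89% of all). The sign counts include small differences, such as 0.09 for CLCN7 at day 14. ACP5, the tartrate-resistant acid phosphatase, read 25.5, 199 and 190 on the beta-TCP arrays, against 15.9, 429 and 42.9 on the control arrays. TCIRG1, a proton pump subunit, differed by -0.30, -1.21 and 1.31, and ATP6V0D2, another pump subunit, by 0.30, -0.80 and 1.40. The summed osteoclast markers read 643, 1082 and 1596 with beta-TCP, against 539, 1880 and 832 in the control. CTSK was the largest part of each sum, at 458, 603 and 1035 with beta-TCP and 340, 857 and 641 in the control. Other probe sets of 2 of the osteoclast markers had the opposite sign at day 14, ACP5 at -0.84 and CTSK at -1.20. The part of the osteoclast markers in the MMP9 values was not tested.

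The neutrophil markers, 9 of 15 with a probe set and 7 kept, did not share the day 7 peak. Their sum read 994, 993 and 131 with beta-TCP, against 1855, 1475 and 330 in the control. S100A8 and S100A9 made up most of it, at 474 and 428 on the beta-TCP array of day 4 and 824 and 840 on the control array. On each day 6 of the 7 markers were lower with beta-TCP (medians -0.80, -0.65 and -1.17), but not always the same 6. ARG1 was the higher one at day 4 (0.10), and CAMP at days 7 (0.21) and 14 (2.02). The medians of all kept probe sets were 0.15, -0.04 and -0.22. Of 22 epithelial markers 18 had a probe set and 13 were kept. The kept ones summed to 25.6, 55.9 and 35.2 with beta-TCP, against 242, 73.4 and 21.5 in the control. Their sum was high on the control array of day 4. Macrophage markers, 11 of 11 kept, summed to 238, 319 and 328 with beta-TCP, against 279, 549 and 296 in the control. Their median differences were -0.22, -0.21 and -0.41. CD68 made up most of the beta-TCP sum at day 14 (214, against 70.5 in the control). It differed by -0.55, -1.17 and 1.59, and its other probe set by 0.10 at day 14. Of 13 osteoblast and osteocyte markers 11 had a probe set and 10 were kept. Their median difference at day 7 was 1.86, opposite in sign to MMP13, MMP9 and TIMP1 and the same in sign as MMP2. Fibroblast markers, 13 of 13 kept, had median differences of 0.82, 0.11 and 0.03 at days 4, 7 and 14. Of 12 markers listed for hypertrophic cartilage 6 were kept, with medians of 0.55, 1.43 and 0.22. These were ACAN, CNMD, COL9A1, COMP, IHH and PTH1R, and PTH1R is also among the osteoblast markers. COL10A1, COL2A1, SOX9, COL11A1, MATN1 and MATN3 were not kept. At day 7 IHH and COMP were lower with beta-TCP, and the other kept ones were higher. Hypertrophic cartilage as such was not tested by these medians. Endothelial markers, 11 of 11 kept, had medians of 0.80, -0.03 and 0.43. Some kept markers read near the floor of the deposited values, which is 0.01 for days 4 and 7. Examples are KRT13 at 0.0258 on the beta-TCP array of day 4 and MSR1 at 0.0279 on the control array of day 7. The part of the marker genes in the member values was not tested.

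**Figure D4:**
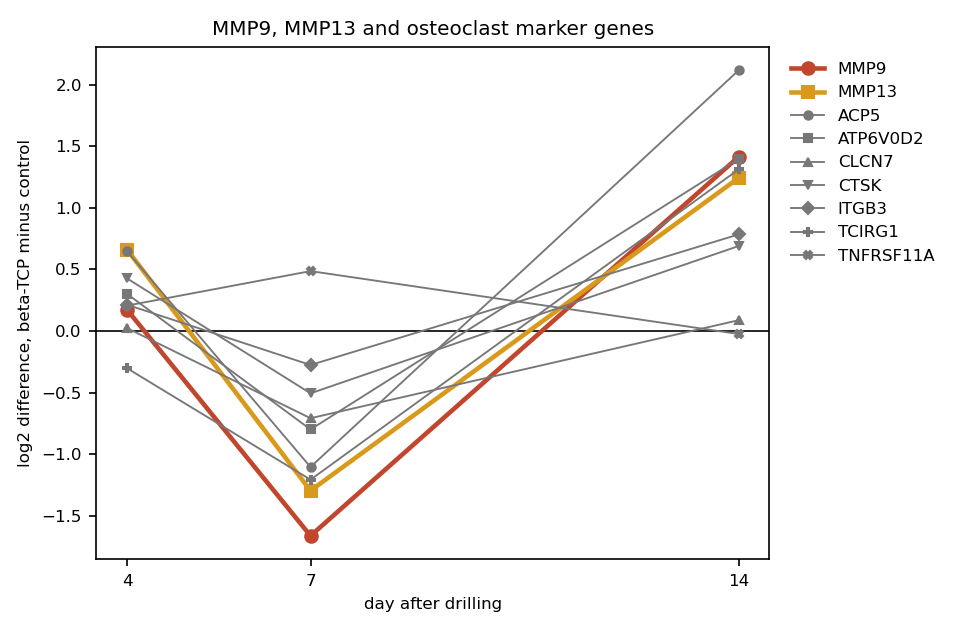
Difference in log2(multiple of the array median + 1), beta-TCP minus control, against the day for the strongest probe sets of MMP9 (red) and MMP13 (yellow) and of 7 osteoclast marker genes (grey), 1 array per group. MMP9 and ACP5 lie below 0 at day 7 (-1.66 and -1.10) and above it at day 14 (1.41 and 2.12), and TNFRSF11A runs the other way at day 7.

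The other genes of the pathway were read from lists, each gene by its strongest probe set. Of 18 further MMP family genes 14 had a probe set and 5 passed the filter. None of these was 2-fold higher or lower at day 7, where 3.17% of all kept probe sets were higher and 3.0% lower. MMP7, matrilysin, read 0.481, 1.7 and 0.242 with beta-TCP against 2.64, 1.65 and 0.633 in the control, and differed by -1.30 at day 4. MMP16, membrane type 3 MMP, read 4.5, 20.4 and 17.4 with beta-TCP, against 1.42, 9.89 and 13.7 in the control. Its differences of 1.18, 0.97 and 0.32 were positive on each day. MMP28 differed by -1.39 at day 14, where its other kept probe set had the opposite sign (0.50).

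Of 21 ADAM and ADAMTS genes 16 had a probe set and 13 were kept. At day 7, 0 of these were at least 2-fold higher (3.17% of all) or lower (3.0% of all). ADAMTS2, the procollagen N-proteinase, differed by 1.42 at day 4. At day 14, the aggrecanase gene ADAMTS5 differed by -1.84, ADAMTS6 by 1.40 and ADAM9 by -1.18. Of 18 regulators and plasminogen activation genes 14 had a probe set and 11 were kept. The urokinase gene PLAU, whose product starts the plasmin cascade that activates several MMPs, differed by -1.28 at day 4 and -1.91 at day 14. SERPINE2, a protease inhibitor, differed by -1.64 at day 7. It read 188, 192 and 225 with beta-TCP, against 234, 597 and 165 in the control, with the control peak at day 7. THBS2, a matricellular protein that takes part in the clearance of MMP2, differed by 0.98, 2.04 and -1.85. TFPI2, a serine protease inhibitor of the matrix, differed by -2.62 at day 14. Of the 11 kept regulators, 4 were at least 2-fold lower at day 14, where 16.2% of all were.

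Among 13 kept genes of collagens and other substrates, 5 were at least 2-fold higher at day 4, where 4.31% of all probe sets were, with aggrecan (ACAN) at 1.52, COL4A2 at 1.52 and decorin (DCN) at 1.41. At day 7 ACAN alone was past 2-fold (2.23), where 3.17% of all probe sets were higher and 3.0% lower. At day 14 the lowest were VCAN (-1.73), COL5A1 (-1.47) and DCN (-1.07), the 3 that were at least 2-fold lower, where 16.2% of all were. Of 7 kept cysteine and serine proteases, HTRA1 (1.49), FAP (1.25) and PRSS23 (1.10) were at least 2-fold higher at day 4, against the same 4.31% of all. CTSD, the lysosomal cathepsin D, differed by -1.13 at day 7 (3.0% of all at least 2-fold lower). FAP (-1.34) and CTSS (-1.16) were lower at day 14, against the same 16.2% of all. In the additive fit 0 genes of these lists passed for the average effect of beta-TCP.

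MMP13, MMP3 and MMP1 lie in one cluster in the RefSeq dog assembly UU_Cfam_GSD_1.0, in the order MMP13, MMP12, MMP3, MMP1, LOC102154292, MMP8, MMP27, MMP20 and MMP7. Of the other genes of this cluster, MMP8 and MMP7 passed the filter. MMP8, the neutrophil collagenase, read 0.887, 1.08 and 0.484 with beta-TCP, against 2.62, 0.865 and 0.108 in the control, with its highest value on the control array of day 4. MMP7 was highest on the control array of day 4, and among the beta-TCP arrays at day 7. Both genes read close to or below 2.64 times the array median on all arrays.

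For the 6 members whose strongest probe set ranged over at least 2 log2 units, the genes with the most similar profile were named by the root mean square difference of centred log2 values over the 6 arrays, among 10198 genes. SLC4A2 lay closest to MMP9 (0.137), followed by PLA2G5 (0.298) and ANPEP (0.3998). Closest to MMP13 were CRYAB (0.455), MMP9 (0.491) and PLXNA2 (0.535). For MMP2 these were ADAMTS2 and EFEMP2 (0.225 each) and PCSK5 (0.235), and for TIMP1 they were SLC43A3 and MRPL2 (0.201 each) and EPAS1 (0.2145). MMP1 was followed by SIGLEC15 (0.421), PROM1 (0.4504) and VLDLR (0.456). For MMP3 the closest were JCHAIN (0.635), GBP1 (0.744) and ATP6V0C (0.748), farther off than for the other 5 of these 6 members.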

How the data were processed

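The deposited table holds 42860 probe sets on 6 arrays, 1 array per group, made from biotin-labelled RNA (100 ng of total RNA, per the labels' protocols). Judged from the values, the authors deposited for days 4 and 7 a signal divided by the array median (lowest values 0.01) and for day 14 an undivided intensity (medians 6.2 for beta-TCP and 12.0 for control). The software that made them is not given in the sources used here, no depth applies, and the number of arrays limits the precision.

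Each array was divided by its median and log2(value + 1) was taken. The 90 pairs of probe sets ending in _a_at and _at (180 probe sets, no member among them) were left out, and 25608 probe sets whose mean reached the 40th percentile were kept. Of 29254 probe sets with 1 gene, 27680 matched the RefSeq gene table by gene ID. The additive fit used limma 3.58.1 (R 4.3.3), two-sided, with Benjamini-Hochberg adjustment over all kept probe sets. It was tested on simulated data with known average beta-TCP effects. There it called 4% of changes of 1 log2 unit, 46% of changes of 2 and 98% of changes of 3, with 10 false calls among 25608 probe sets. The strongest probe set stood for each gene of a list. Listed genes were named by size (the 3 largest differences per list and day, if at least 2-fold). The members and lists were chosen with earlier results of these data known. Alternatives are given in the closing section, of which centring on the median of all kept probe sets was chosen after seeing the data.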

Additional observations from a re-analysis of the deposited data

Results flagged for a closer look

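The difference between beta-TCP and control had opposite directions at days 14 and 7 for 2 genes, at least 2-fold on both days. For MMP9 it was 1.41 at day 14 and -1.66 at day 7, a gap of 3.08 log2 units. For MMP13 (CfaAffx probe set) it was 1.24 and -1.30, a gap of 2.54 log2 units. With values as deposited, the day 14 differences were 0.47 for MMP9 and 0.33 for MMP13, both under 2-fold. In that setting the higher deposited median of the control array lowers the day 14 difference of all strong probe sets. The other MMP13 probe set (Cfa) was at 0.77 at day 14, and its sign turned with values as deposited (-0.0171). With 1 array per group this gap was not tested, and the day 14 arrays were deposited on another scale. No group holds enough arrays to look for outlying samples.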

How the results depend on the processing

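All 13 member differences of at least 2-fold on a single day kept their sign under every alternative that held the probe set. The 5 that were lower with beta-TCP at day 7 kept 2-fold, while 3 others lost it only with pseudocount 16. Alternatives that only select probe sets cannot change a difference. Values as deposited left those of days 4 and 7 nearly unchanged. At day 14 they lower the difference of any probe set well above the median, since the control array had the higher deposited median. Counts of member probe sets past 2-fold moved as follows. At day 4, higher, there were 2 with pseudocount 0.25. At day 7, higher, there were 2 with scaling to the 90th percentile, quantile normalization, pseudocount 0.25 or centring on the median of all kept probe sets, and 0 with pseudocount 16 or CfaAffx probe sets alone; lower, there was 1 with CfaAffx probe sets alone. At day 14, higher, there were 0 with values as deposited and 1 with pseudocount 16 or CfaAffx probe sets alone; lower, there were 11 as deposited, 0 with pseudocount 16 and 1 with Cfa probe sets alone or 1 probe set per gene.

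In the additive fit, the average beta-TCP effect called 0 to 108 probe sets when 1 day's pair was left out (3 without day 4, 108 without day 14), none of them members. Day 7 minus day 4 called 75 with the 90th percentile, 43 with quantile normalization, 25 with Cfa alone, 50 with 1 probe set per gene and 1880 without the day 14 pair. Day 14 minus day 4 called 20163 as deposited, 1839 with the 90th percentile, 1419 with quantile normalization, 323 with pseudocount 0.25, 0 with pseudocount 16 or no filter, 276 with CfaAffx alone and 518 with 1 probe set per gene. Day 14 minus day 7 called 20569 as deposited, 22 with the 90th percentile, 15 with quantile normalization, 54 with the pairs kept, 9 with Cfa alone, 23 without the day 4 pair and 0 with pseudocount 16, no filter, CfaAffx alone or 1 probe set per gene. With values as deposited, in which day 14 was not divided by its median, fitted day differences turned positive: against day 4, MMP1 2.68, MMP14 2.46 and TIMP3 2.39; against day 7, MMP2 2.44, MMP14 2.37, TIMP1 1.85, TIMP2 2.96 and TIMP3 2.13 and 1.98. Other causes were not tested. The additive fit compares the treatments within days, and no further block was added, since the labels give no replicate numbers. With 1 array per group, the spread between animals is unknown, and weak probe sets such as the CfaAffx ones of TIMP3 lie near the array median.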
